A study of Mus musculus with 4 samples.

Results

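The odorant and vomeronasal receptor genes form very large tandem gene families that serve the sensory neurons of the nose. Accessible regions of naive CD4 T cells were collected on chromosomes 1 to 19 wherever they lay within 10 kb of a gene whose symbol starts with Olfr (odorant receptors), Vmn1r or Vmn2r (the V1R and V2R families of vomeronasal receptors). Of 63301 autosomal regions, 585 did so, which is 0.924% (95% exact interval 0.851 to 1%). Of these, 26 also lay within 1 kb of an annotated end of another protein-coding gene and are described apart. The remaining 559 are called receptor-only regions. The choice used gene names and positions and no measured value. The farthest member lay 10000 bp from a receptor gene, and the nearest region outside the rule lay at 10024 bp.

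ATAC-seq had been used, which marks open chromatin by letting a transposase insert sequencing adapters into accessible DNA. Naive CD4 T cells had been purified from spleen and pLN (an abbreviation the labels do not spell out) of mice in 2 groups, WT (2 libraries) and DDX55 KO (2 libraries). Ddx55 encodes a DEAD-box RNA helicase; the sources used here do not give the allele, the way it was deleted, the strain or the age of the animals, or say whether each library had its own animal. The analysis rests on a single list of 64525 regions, cited in the labels of all 4 libraries, that gives a position and no count, score, library or genotype. Values per library, depth per library and the effect of genotype on these regions were therefore not analysed here, and each region stands for the 4 libraries pooled. The labelled cell type was checked against its markers. All 9 markers of naive CD4 T cells had a region at a gene end (Cd3d, Cd3e, Cd3g, Cd4, Ccr7, Lef1, Tcf7, Il7r and Bcl11b). Of 12 markers of other cells, 2 did, Cd8b1 of CD8 T cells with a region of 929 bp and Csf1r of macrophages with one of 171 bp. The marker of mature olfactory neurons Omp had none within 10 kb, whereas Gnal, the other olfactory neuron marker listed, had 5 there and none at an end. Within 10 kb, 6 of the 12 markers of other cells and all 9 markers of naive CD4 T cells had a region.

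In the nose, each olfactory sensory neuron expresses a single odorant receptor allele, chosen from a repertoire that is otherwise packed in heterochromatin carrying repressive methylation of histone H3. The chosen gene is switched on through enhancers that bind LHX2, its partner LDB1 and EBF proteins. V1R and V2R receptors detect pheromones in the vomeronasal organ, V1R in neurons that signal through the G protein subunit Gnai2 and V2R in neurons that use Gnao1. Odorant and V1R receptors are encoded by a short intronless coding sequence, whereas V2R genes carry a long extracellular domain and several exons. Outside the sensory epithelia the clusters are in general silent.

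The receptor promoter windows that an accessible region reached are shown first, because they show how far regions extended over annotated receptor starts. The window runs from 250 bp before to 50 bp after the annotated start, 300 bp in all, and was taken from RefSeq (GRCm38.p6, the assembly named mm10). Regions touched 6 of 1265 such windows. The 4 with the longest overlap follow 5′ to 3′ on the gene's strand with the bases under the accessible region in capitals, and then a neighbouring promoter in the Olfr433 cluster with no region.
Vmn2r29, chr7:7278240-7278539, minus strand: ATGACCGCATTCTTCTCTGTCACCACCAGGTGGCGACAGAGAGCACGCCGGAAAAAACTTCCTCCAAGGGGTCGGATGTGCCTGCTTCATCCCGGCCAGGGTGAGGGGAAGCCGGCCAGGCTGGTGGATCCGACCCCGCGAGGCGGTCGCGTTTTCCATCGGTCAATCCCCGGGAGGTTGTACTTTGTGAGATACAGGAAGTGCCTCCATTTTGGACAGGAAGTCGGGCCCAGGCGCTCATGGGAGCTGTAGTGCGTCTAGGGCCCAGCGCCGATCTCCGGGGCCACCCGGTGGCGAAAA
Olfr1305, chr2:111873804-111874103, minus strand: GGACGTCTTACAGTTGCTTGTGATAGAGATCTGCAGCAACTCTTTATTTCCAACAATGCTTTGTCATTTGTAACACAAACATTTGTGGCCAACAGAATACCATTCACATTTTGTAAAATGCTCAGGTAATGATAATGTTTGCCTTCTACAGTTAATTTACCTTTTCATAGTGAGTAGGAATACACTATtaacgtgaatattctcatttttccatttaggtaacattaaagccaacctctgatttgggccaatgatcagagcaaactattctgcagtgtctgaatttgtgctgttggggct
Vmn2r117, chr17:23479548-23479847, minus strand: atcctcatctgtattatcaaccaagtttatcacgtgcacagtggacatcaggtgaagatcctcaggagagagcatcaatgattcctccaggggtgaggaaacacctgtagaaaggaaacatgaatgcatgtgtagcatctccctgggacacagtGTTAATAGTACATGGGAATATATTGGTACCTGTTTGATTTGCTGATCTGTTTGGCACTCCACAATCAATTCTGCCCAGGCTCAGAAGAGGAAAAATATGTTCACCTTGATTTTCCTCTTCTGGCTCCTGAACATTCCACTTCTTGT
Olfr433, chr1:174041683-174041982, plus strand: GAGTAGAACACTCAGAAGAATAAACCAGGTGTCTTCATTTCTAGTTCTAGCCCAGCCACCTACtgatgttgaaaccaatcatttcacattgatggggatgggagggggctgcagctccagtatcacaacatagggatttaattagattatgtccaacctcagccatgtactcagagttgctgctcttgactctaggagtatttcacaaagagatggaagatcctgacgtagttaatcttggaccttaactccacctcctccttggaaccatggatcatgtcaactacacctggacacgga
Olfr432, chr1:174050125-174050424, plus strand, no region: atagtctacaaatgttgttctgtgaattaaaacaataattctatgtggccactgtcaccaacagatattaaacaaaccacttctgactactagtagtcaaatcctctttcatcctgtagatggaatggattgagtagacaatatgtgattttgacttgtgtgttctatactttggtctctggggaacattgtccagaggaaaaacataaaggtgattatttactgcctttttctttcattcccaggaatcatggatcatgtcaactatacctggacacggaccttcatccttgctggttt
The region at Vmn2r29 covered all 300 bp of a window with 62.3% GC and 23 CpG dinucleotides. The window of Olfr1305 was covered over 188 bp and holds 2 CpG, that of Vmn2r117 over 146 bp with 1, and that of Olfr433 over 63 bp with 2. The remaining pair, Olfr1016 and Olfr652, were covered over 60 bp and 29 bp and hold 0 CpG. The uncovered Olfr432 window holds 1 CpG. Of the covered windows, that of Vmn2r29 alone had a GC content above 45.0%.

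Few receptor genes had an accessible region close by. A region lay within 1 kb of either annotated end of 78 of 2035 receptor genes, or 3.83% (3.04 to 4.76%), whereas the same window held a region at 58.3% of the 19106 other autosomal protein-coding genes. Within the wider window, the gene and 10 kb on each side, 521 receptor genes had a region, or 25.6% (23.7 to 27.6%), against 84.2% of other protein-coding genes. The other 1514 receptor genes (74.4%) had none in that window, 415 had 1 region, 82 had 2 and 24 had 3 or more. Neighbouring receptor genes can share a region, and gene length differs: the median gene is 945 bp for Olfr, 921 bp for Vmn1r, 16090 bp for Vmn2r and 19644 bp for other protein-coding genes, so the wider window favours the long genes. No test was made, since neighbouring genes are not independent; the intervals cover counting error over genes only.

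Shares were highest for Vmn2r in both windows. Among 1419 Olfr genes, 58 had a region at an end (4.09%, 3.12 to 5.25%) and 345 within 10 kb (24.3%, 22.1 to 26.6%). Among 366 Vmn1r genes, 5 had a region at an end (1.37%, 0.445 to 3.16%) and 80 within 10 kb (21.9%, 17.7 to 26.4%). Among 250 Vmn2r genes, 15 had a region at an end (6%, 3.40 to 9.70%) and 96 within 10 kb (38.4%, 32.3 to 44.7%). The Olfr interval overlaps those of Vmn1r and Vmn2r at gene ends, and for the wider window the Vmn2r interval lies above both others. Without chromosome 4, where 6 Vmn2r pseudogenes stand apart (described further on), the Vmn2r shares were 4.55% and 36.4%. Coding receptors and pseudogenes had overlapping intervals at gene ends: 58 of 1454 protein-coding receptors (3.99%, 3.04 to 5.13%) and 20 of 581 pseudogenes and other models (3.44%, 2.12 to 5.27%) had a region there.

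**Figure D1:**
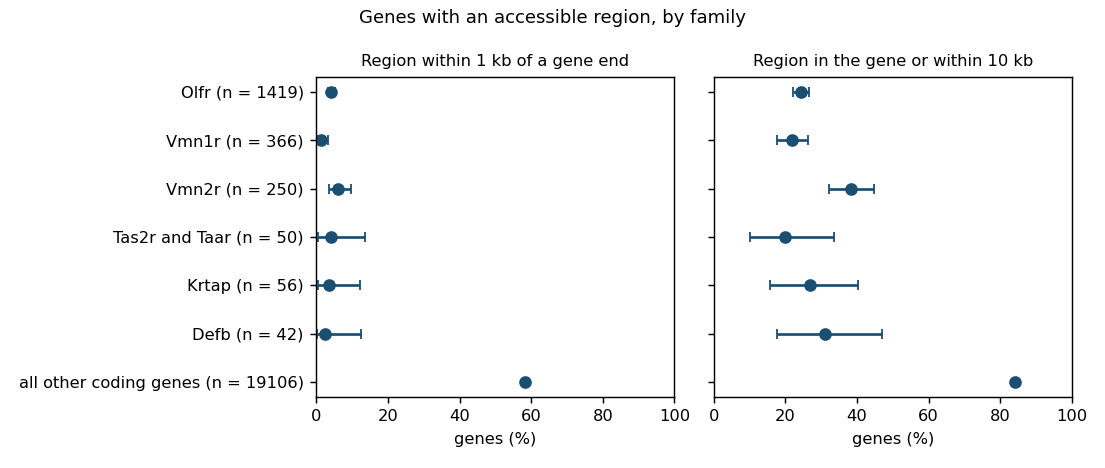
Share of genes (%) with an accessible region within 1 kb of a gene end (left) or in the gene and 10 kb on each side (right), by gene family; points are shares and bars are 95% exact intervals. All 3 receptor families lie at or below 6% on the left, against 58.3% of other protein-coding genes, and other clustered families of tissue-restricted genes lie close to the receptors.

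Low shares were also seen in other tandem gene families that serve other tissues. For taste and trace amine receptors (Tas2r and Taar), 2 of 50 genes had a region at an end (4%, 0.488 to 13.7%). For keratin-associated proteins of hair (Krtap) the count was 2 of 56 (3.57%, 0.435 to 12.3%), and for beta-defensins (Defb) it was 1 of 42 (2.38%, 0.0603 to 12.6%). Within 10 kb the shares were 20%, 26.8% and 31.0%. All of these intervals include the receptor values of 3.83% and 25.6%, so the receptors were not distinguishable from these families at these gene numbers.

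The receptor-only regions were spread over receptor territory much as its length is, except for a higher share inside receptor genes. Many of the regions inside receptor genes lay in a few pseudogenes of chromosome 4. Of the 559, 371 (66.4%) lay 1 to 10 kb from the nearest receptor gene, 104 (18.6%) lay inside a receptor gene away from its ends, 78 (14.0%) lay within 1 kb of a gene end without touching a promoter window, and 6 (1.07%) touched a promoter window. By length, 68.9% of the territory lies 1 to 10 kb from a receptor gene, 14.8% inside one away from its ends and 16.2% within 1 kb of an end. The shares at 1 to 10 kb and at gene ends are close to what the window around each gene sets. The share inside a receptor gene has an interval of 15.5 to 22.1%, above its share by length. Many of these regions lie in the chromosome 4 pseudogenes described further on, whose stretch holds 71 of the 559 receptor-only regions. The share without that stretch was not computed, so the higher share cannot be taken as general to receptor genes. The interval also treats regions crowded in the same gene as independent. The nearest receptor was an Olfr gene for 292, a Vmn1r gene for 77 and a Vmn2r gene for 190. Strand was known for the nearest receptor of 300 regions. Of these, 112 (37.3%, 31.8 to 43.1%) lay upstream, 113 (37.7%, 32.2 to 43.4%) downstream and 75 (25%) in the gene body. The median distance was 4.23 kb upstream and 4.40 kb downstream, and 11 and 12 regions lay within 1 kb on each side. The upstream and downstream shares differed by less than their counting error. Of the 1103 protein-coding Olfr models, 776 (70.4%) are at most 1 kb long, so upstream noncoding exons and the start sites they define may be missing from the annotation.

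Among receptor genes with a receptor-only region at an end, the widest such region, 1057 bp at chr1:174040689-174041745, lay at the odorant receptor Olfr433, the gene whose promoter is printed above. It was followed by Vmn2r29 with 962 bp at chr7:7277776-7278737, Olfr9 with 869 bp at chr10:128990689-128991557 and Olfr1033 with 752 bp at chr2:86020375-86021126. The next were the pseudogene Vmn2r-ps15 with 676 bp, Vmn2r125 with 671 bp, the pseudogenes Vmn2r-ps115 (591 bp), Vmn2r-ps117 (579 bp), Olfr929-ps1 (528 bp) and Vmn2r-ps134 (525 bp), Olfr312 with 502 bp and Vmn1r-ps104 with 481 bp. These 12 genes are of all 3 families, with 3 of them on chromosome 17, where Vmn2r-ps115 and Vmn2r-ps117 lie in the same cluster, and 2 on chromosome 4. Olfr1033, the most isolated of the first 4, lies 501705 bp from the nearest other protein-coding gene.

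No odorant receptor had more than 3 regions within 10 kb. Olfr1033, Olfr1164 and Olfr524 had 3 receptor-only regions each, as did Olfr633. Among V1R genes, Vmn1r2 had 4, and the pseudogenes Vmn1r-ps63 and Vmn1r-ps92 and the coding genes Vmn1r3 and Vmn1r238 had 3 each. Vmn1r2 and Vmn1r3 lie in a cluster at chr4:3103699-3185305 and Vmn1r238 in one at chr18:3026901-3123412. Both clusters are near the chromosome start, where the lowest region start on any autosome is 3000003. The highest counts were in the V2R pseudogenes Vmn2r-ps16 with 29, Vmn2r-ps17 with 15 and Vmn2r-ps15 with 10, all on chromosome 4 and 160 kb, 140 kb and 74.2 kb long.

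Regions were sparser in receptor territory than elsewhere. The receptor genes and 10 kb on each side cover 38.8 Mb, or 1.62% of the autosomal span, and held 15.1 regions per Mb against 26.5 per Mb in the remaining 2364 Mb, a ratio of 1.76. By length, 0.475% of receptor territory was accessible against 1.10% of the rest. The family values were 13.2 regions per Mb around Olfr genes, 12.2 around Vmn1r and 21.4 around Vmn2r genes, the last 13.5 per Mb without chromosome 4. Density was lower than in the rest of the same chromosome on 17 of 19 chromosomes. The exceptions were chromosome 4 with 80.7 against 26.2 regions per Mb and chromosome 18 with 64.0 against 23.3. On chromosome 18 the value came from 4 regions around 3 Vmn1r genes near the chromosome start. On chromosome 12, 3 receptor genes had 0 regions in 0.0429 Mb. The chromosomes with most receptor genes, 7 (569 genes) and 2 (379 genes), had 10.9 and 14.9 regions per Mb in the territory against 27.6 and 27.7 outside it.

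Receptor territory also holds few other genes, and regions outside it become sparser with distance from genes. Of receptor territory, 94.7% lay farther than 10 kb from any other protein-coding gene, against 49.8% of the rest of the autosomes. With regions placed by their middle, the rest of the autosomes at the territory's own mix of distances had 19.1 regions per Mb and the territory 14.9. Farther than 250 kb from another protein-coding gene the values were 13.5 in the territory and 15.7 outside, and at 100 to 250 kb they were 11.6 and 16.1. The gap was wider at 10 to 50 kb, with 13.8 against 24.4. The order was the opposite inside other protein-coding genes, with 74.1 against 32.7, from 62 regions in 0.837 Mb. It was also the opposite, by little, at 1 bp to 10 kb, with 43.9 against 42.1. Without chromosome 4 the value inside other protein-coding genes was 41.8 against 32.6, from 25 regions in 0.599 Mb. At 1 bp to 10 kb the territory then had 26.3 against 42.0 outside. Receptor-only regions lay a median of 116 kb from the nearest other protein-coding gene and the receptor genes themselves 142 kb, so the regions were not limited to cluster borders.

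**Figure D2:**
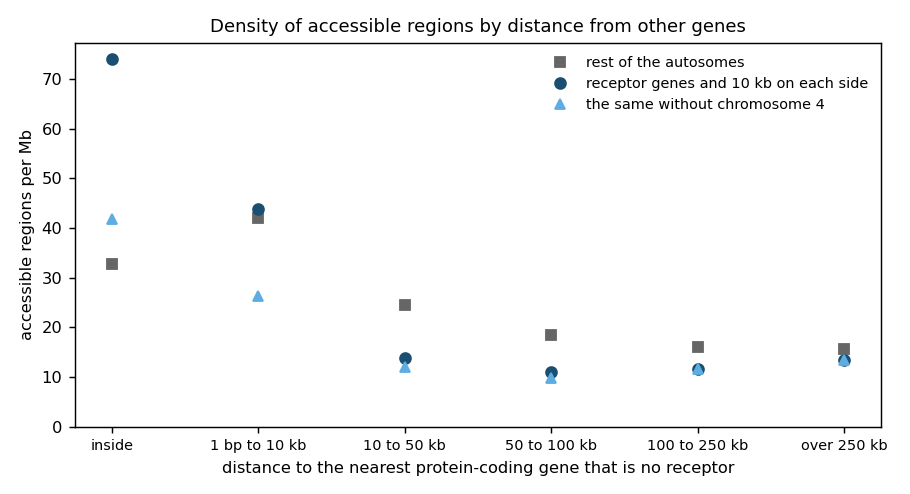
Accessible regions per Mb (y axis) against distance to the nearest protein-coding gene that is no receptor (x axis, 6 classes), for the rest of the autosomes (squares), receptor genes with 10 kb on each side (circles) and the same without chromosome 4 (triangles). Beyond 10 kb the receptor values lie below the rest in every class, by the least over 250 kb (13.5 against 15.7).

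Receptor genes joined over gaps of up to 500 kb gave 104 clusters, of which 49 had 5 or more genes and together held 1947 genes and 467 of the regions. Of these 49, 47 had at least 1 region and 47 had fewer regions per Mb than the rest of the autosomes, with a median of 11.6. The value of the rest used here, 26.5 per Mb, was not matched for distance to other genes. At the territory's own mix of distances, with regions placed by their middle, it was 19.1, and several more clusters lay above that. The large odorant receptor cluster of chromosome 2, chr2:85330967-90401674 from Olfr987 to Olfr1274 (293 genes), held the most regions, 64, or 15.2 per Mb. Its longest stretch without a region was 352 kb and spans 26 receptor genes. The V2R and V1R cluster of chromosome 17 from Vmn2r90 to Vmn1r-ps150 held 48 regions, or 24.5 per Mb. The odorant receptor clusters of chromosome 9 from Olfr160 to Olfr986 (127 genes) and of chromosome 7 from Olfr543 to Olfr692 (158 genes) held 30 and 28 regions, or 14.8 and 13.0 per Mb. The cluster of chromosome 13 from Olfr1370 to Vmn1r-ps135, that of chromosome 17 from Vmn2r111 to Olfr752-ps1 and that of chromosome 7 from Vmn1r-ps53 to Vmn1r-ps69 held 15 each.

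The densest of these clusters were Vmn2r111 to Olfr752-ps1 with 31.4 regions per Mb, Olfr522 to Olfr542-ps1 on chromosome 7 with 29.8 (12 regions) and Olfr70 to Olfr155 on chromosome 4 with 24.7 (3 regions). The first and second were above the 26.5 per Mb of the rest of the autosomes. At the other end, 0 regions were found around the 15 receptor genes from Olfr465-ps1 to Vmn2r-ps109 on chromosome 13, where a stretch of 1185 kb had none, and around the 5 genes from Olfr211 to Olfr215 on chromosome 6. The next lowest was Olfr62 to Olfr1328 on chromosome 4 with 1 region, or 3.72 per Mb. A large V1R cluster of chromosome 7, Vmn1r91 to Vmn1r183, had 10 regions around 99 genes, or 5.26 per Mb, and a stretch of 1090 kb with 24 receptor genes and no region; it was picked after its values were seen. The sources used here do not say how reads that match several near-identical receptor copies were handled, and its part in such stretches was not tested.

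**Figure D3:**
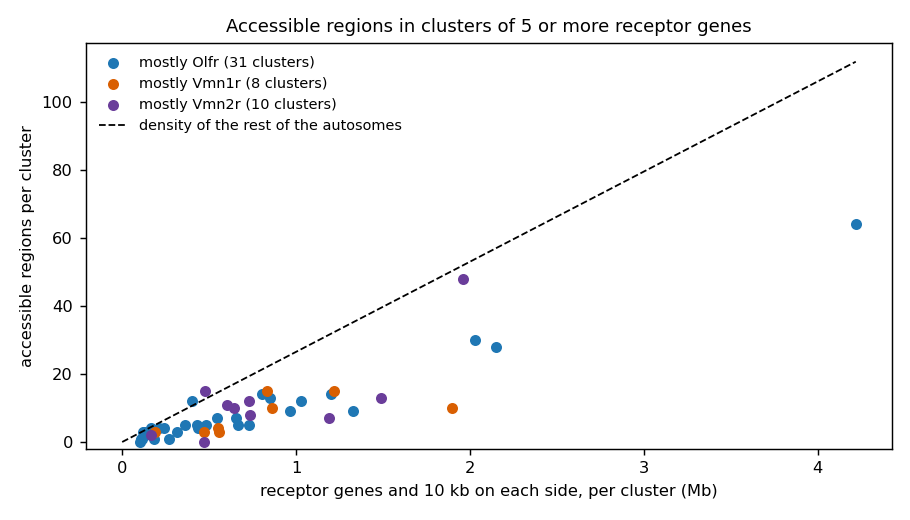
Accessible regions per cluster (y axis) against the length of its receptor genes with 10 kb on each side (x axis, Mb) for the 49 clusters of 5 or more receptor genes, coloured by the most frequent family; the dashed line is the density of the rest of the autosomes, 26.5 per Mb. All but 2 clusters lie below the line, which is not matched for distance to other genes, and the cluster with 64 regions is Olfr987 to Olfr1274.

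The stretch of chromosome 4 from Vmn2r-ps15 to Vmn2r-ps20, chr4:145701675-147521814 with 6 V2R pseudogenes, stood apart and was picked after its values were seen. It held 80 of the 585 regions, 71 of them receptor-only, in 0.496 Mb of receptor territory, or 161 per Mb. Their median width was 284 bp. High density was not limited to the pseudogenes: the whole stretch with 10 kb on each side, 1.84 Mb, held 207 regions, or 112 per Mb. It contains 11 other protein-coding genes, of which 10 are Zfp zinc finger genes, and several overlap the pseudogene models. The 9 members at the end of another protein-coding gene there lay at Zfp genes and were 136 to 380 bp wide. Without chromosome 4, 493 regions remained and the territory's density was 13.1 per Mb against 26.6 outside, a ratio of 2.03.

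**Figure D4:**
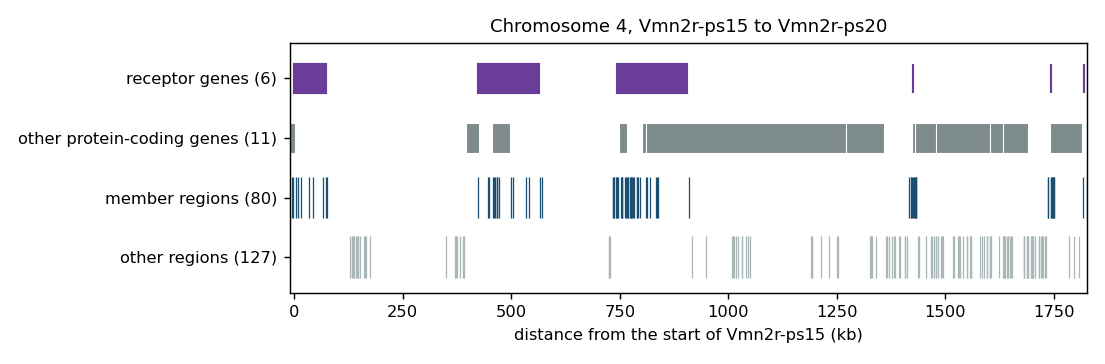
Map of chromosome 4 from Vmn2r-ps15 to Vmn2r-ps20 with 10 kb on each side (x axis, kb from the start of Vmn2r-ps15), with receptor genes, other protein-coding genes and accessible regions as bars; the outlines of receptor genes widen the shortest ones so that they can be seen. The 80 member regions lie in groups at the 6 pseudogenes, and regions outside the 10 kb windows are also frequent.

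Regions at the end of another protein-coding gene were uncommon in the territory, 26 of 585 members (4.44%, 2.92 to 6.44%), whereas 18.3% of autosomal regions outside it lay at such an end. Receptor gene ends did not count as such ends. Of the territory, 94.7% lay farther than 10 kb from another protein-coding gene, against 49.8% of the rest. The low share is thus largely set by where the territory lies and says little about its regions. The 26 members lay at 25 genes, 14 of them zinc finger genes (Zfp or Zkscan). The widest were at Crlf2, the receptor subunit for thymic stromal lymphopoietin (2238 bp, chr5:109556842-109559079), and at H2-M3, a nonclassical MHC class I gene inside an odorant receptor cluster of chromosome 17 (1534 bp, chr17:37269909-37271442). Regions of 1027 bp lay at Zfp606 and at AI987944. Those at Ndufa10, a subunit of mitochondrial complex I, at Gm5373 and Zfp709, and at Nt5c3, a nucleotidase, were 1010 bp, 1007 bp and 1001 bp wide. The list went on with Rfc3, a replication factor C subunit (963 bp), Zfp772 (956 bp) and 5430403G16Rik (904 bp). The Nt5c3 region also lay at an end of the V1R gene Vmn1r4 and is the only reason that gene counts as having one. Away from chromosome 4, the 17 such regions were at least 512 bp wide except that at Mptx2 (150 bp). Of 84 other protein-coding genes with an end in the territory, 41 (48.8%, 37.7 to 60%) had a region at an end, 19 of 24 zinc finger genes and 22 of 60 others. The 58.3% of all other autosomal protein-coding genes lies within that interval. Zinc finger genes outside the territory were not counted apart.

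Receptor-only regions were narrow. Their median width was 238 bp (quartiles 189 and 336 bp), and 54 of 559 (9.66%) were 500 bp or wider. Outside the territory, regions away from gene ends had a median of 262 bp (198 and 406 bp) and 17.7% reached 500 bp. The 26 members at another gene's end had a median of 666 bp (329 and 992 bp), and 61.5% reached 500 bp, beside 717 bp and 69.7% for regions at gene ends outside the territory. The median of each class of member thus lay below that of the same class elsewhere. For members at another gene's end, this held only with the narrow chromosome 4 regions counted. Most of the 17 such members away from chromosome 4 were wider than 717 bp. Fewer receptor-only regions reached 500 bp, with an interval of 7.34 to 12.4% against 17.4 to 18.1%. The members at another gene's end mix narrow regions on chromosome 4 with mostly wider ones elsewhere, as given above. By nearest family the medians were 230 bp for Olfr, 235 bp for Vmn1r and 270 bp for Vmn2r.

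**Figure D5:**
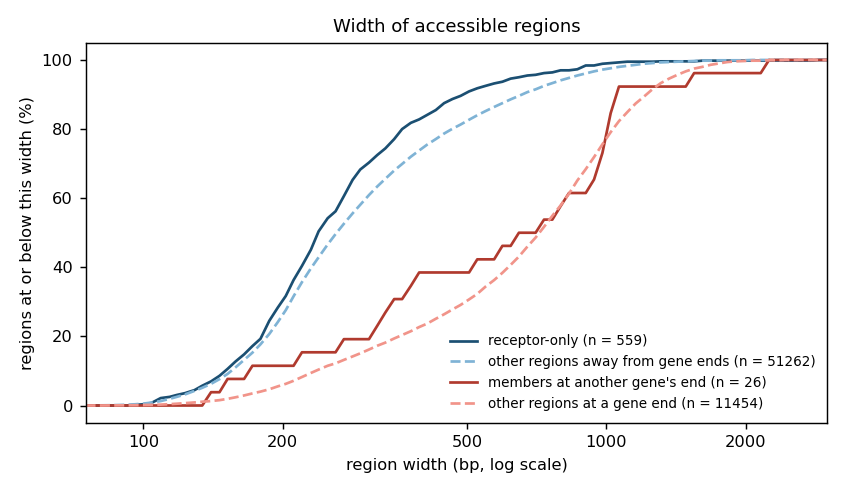
Cumulative share of regions (%, y axis) by width (bp, log scale, x axis) for receptor-only regions, members at another gene's end, and regions outside receptor territory away from or at gene ends. Receptor-only regions (median 238 bp) rise first, just ahead of other regions away from gene ends (262 bp).

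The widest receptor-only region, 2872 bp at chr14:51062892-51065763, lay 4548 bp from Olfr750 and over the tRNA genes n-TLaag8, n-TPagg4 and n-TTtgt3 and the noncoding gene Gm52088. Regions overlapped 8 of 11 tRNA genes in the territory (72.7%, 39.0 to 94.0%) and 123 of 375 autosomal tRNA genes outside it (32.8%, 28.1 to 37.8%), and 4 receptor-only regions accounted for those 8. The next widest were 1550 bp, 1288 bp and 1070 bp inside Vmn2r-ps17 or Vmn2r-ps16, the 1550 bp and 1070 bp regions also inside Zfp600. After the 1057 bp region of Olfr433 came 1012 bp near Vmn1r238 on chromosome 18, 966 bp near Vmn2r125, 962 bp at Vmn2r29, and 947 bp and 900 bp near Vmn2r-ps16 and Vmn2r-ps20. Of the 10 widest, 6 were on chromosome 4. Among all receptor-only regions, 41 (7.33%) lay in another protein-coding gene, 23 overlapped a long noncoding RNA gene and 11 a non-receptor pseudogene.

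Sequence of the annotated promoter windows differed between receptors and other genes. Of the protein-coding Olfr models, 70.4% are at most 1 kb long. Many Olfr windows may therefore lie at the coding start and not at the start of transcription, which limits every comparison below. The 1265 receptor promoter windows, of 1260 genes, had a median GC content of 35.7% and of 1 CpG, and 31.1% held no CpG. The 18820 windows of other autosomal protein-coding genes had medians of 57.7% and 15.0 CpG, and 2.60% held none. Regions touched 0.474% of receptor windows (0.174 to 1.03%) against 51.1% of the others. By family they touched 4 of 942 Olfr, 2 of 117 Vmn2r and 0 of 206 Vmn1r windows, the last allowing a share of up to 1.46%. Among windows with 0 to 3 CpG, 5 of 1184 receptor windows (0.422%, 0.137 to 0.983%) and 226 of 3449 others (6.55%, 5.75 to 7.43%) were touched. With 4 to 9 CpG the counts were 0 of 78 receptor windows, which allows up to 3.85%, against 21.3% of others. Only 3 receptor windows held 10 or more CpG, and the 1 touched is Vmn2r29. At 0 to 3 CpG the intervals of receptors and other genes do not overlap.

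Short motifs were searched on both strands of the same 300 bp windows, as a description of sequence and not of binding. The same bases may count for more than 1 motif, and the limit on receptor starts holds here too. The homeodomain core TAATNA, the letters bound by LHX2-like factors, was in 68.3% of receptor windows and 19.3% of others. The TATA box TATAAA was in 39.6% and 10.9%. An EBF motif, CCCNNGGGA, was in 3.32% and 7.74%, and by family in 15.4% of Vmn2r, 2.55% of Olfr and 0 of 206 Vmn1r windows. Among motifs of factors active in T cells, the RUNX motif TGTGGT was in 19.4% and 14.4%. The ETS motif CCGGAAG was in 0 of 1265 receptor windows (up to 0.237%) and 12.7% of others. These ETS letters hold a CpG, which 31.1% of receptor windows lacked, and other forms of the ETS site were not searched. The GC box GGGCGG was in 0.791% and 50.1%, and the CTCF core AGGNGGC in 3.87% and 35.9%. GC-rich motifs were rarer and AT-rich motifs more common in receptor windows, alongside their lower GC content. Of the 6 windows a region touched, 4 held the homeodomain letters (Olfr433, Olfr1305, Olfr1016 and Olfr652) 2 the CTCF core letters (Vmn2r29 and Olfr433) and 2 the RUNX letters (Olfr1016 and Olfr652).

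The genes that act on or downstream of the receptors fell into groups. Of 22 factors for receptor choice and silencing, 16 (72.7%, 49.8 to 89.3%) had a region at a gene end and 20 (90.9%, 70.8 to 98.9%) within 10 kb. The 84.2% of other protein-coding genes with a region within 10 kb lies in the latter interval. Heterochromatin genes were among those with the widest regions: Cbx3, a heterochromatin protein 1 gene (2173 bp), Trim28, the corepressor that recruits histone methyltransferases (1860 bp), and Lbr, the lamin B receptor that tethers heterochromatin to the nuclear envelope (1407 bp). The H3 lysine 9 methyltransferase genes Ehmt1, Ehmt2 and Setdb1 had regions of 457 bp, 601 bp and 627 bp. Factors of receptor choice had regions of varied width: Lhx2 204 bp, Ebf1 226 bp, Kdm1a, a histone demethylase, 361 bp, and the stress response genes Eif2ak3 and Atf5, which act in the feedback from an expressed receptor, 781 bp and 967 bp. Cbx1, Cbx5, Suv39h1, Kmt5c and Atrx, all heterochromatin genes, had regions of 612 bp, 1327 bp, 464 bp, 1034 bp and 1043 bp. Ldb1, Ebf2, Ebf3, Ebf4, Emx2 and the DNA methyltransferase Dnmt1 had none at an end.

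Of 19 olfactory signalling genes, 5 (26.3%, 9.15 to 51.2%) had a region at an end, namely Adcy3, Cnga4, Gnb1, Ric8b and Pde4a. Cnga4 overlaps the neighbouring protein-coding gene Fam160a2, and whether its region lies at the shared end was not examined. The olfactory G protein gene Gnal had none at an end and 5 within 10 kb, and the channel gene Cnga2, Omp, the receptor chaperones Rtp1 and Rtp2, and Gfy had 0 within 10 kb. The other 8 genes, Cngb1, Ano2, Gng13, Slc24a4, Pde1c, Stoml3, Ncam2 and Reep1, had 1 to 13 regions within 10 kb and none at an end. Of 7 vomeronasal signalling genes, 4 (57.1%, 18.4 to 90.1%) had a region at an end, the broadly expressed Gnai2 and also Gng8, Itpr3 and Plcb2, while the vomeronasal channel gene Trpc2, Gnao1 and Tfap2e did not. These shares are to be read beside the 58.3% of other protein-coding genes, and that value lies within the intervals of the choice and silencing list and of the vomeronasal list and above that of the olfactory list.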

How the data were processed

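The deposited region list is one merged file in BED format; its positions were converted to 1-based coordinates. Per the submitters' processing notes, fastp 0.12.4, Bowtie2 2.5.08, SAMtools 1.15.1, MACS3 3.0.0b1 and the build mm10 were used; the sources used here do not give the peak threshold, the treatment of reads with several matches or of the transposase offset, or the way libraries were merged. Gene positions, kinds and promoter windows came from RefSeq tables of GRCm38.p6. Of 2073 receptor genes in the table, 2035 on autosomes were used, with 10 on X and 20 on Y left out. A further 8, among 328 genes in all, were left out because they are listed under a chromosome with scaffold coordinates, below the lowest region start (3000003). A region counted when it overlapped a window by at least 1 bp. Clusters joined receptor genes over gaps of up to 500 kb. Shares carry 95% exact (Clopper-Pearson) intervals, which cover counting error only; for a count of 0 the limit is 3 counts of the total. Counts, widths and densities were computed in Python 3.11.15 with numpy 2.4.6, pandas 2.3.3 and scipy 1.17.1, and the interval functions were tested on simulated data. No test between groups was made. The planned comparison of genotypes needed values per library and was not analysed here.

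Named genes were those with the widest regions, the most regions per family, or the widest or extreme clusters by a written rule; any gene of the pathway and marker lists could be named, and the counts hold named and unnamed ones. Exceptions are said in the text. A further 2 genes planned for these lists are not reported here and entered no count. The members and lists were chosen with earlier results of these data known.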

Additional observations from a re-analysis of the deposited data

How the results depend on the processing

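Of 56 alternative settings over 10 results, 43 left the value within its interval, or a count or density within 1.5 times. The other 13 moved it. The share of receptor genes with a region nearby was 15.3% with a flank of 5 kb and 40.7% with 20 kb, beside 79.9% and 89.5% of other protein-coding genes. Keeping regions of at least the median width of 292 bp left 200 member regions, 179 of them receptor-only, 5.15 per Mb and 8.99% of receptor genes. With an end window of 500 bp or 2 kb, 2.75% or 6.49% of receptor genes had a region at an end. Counting other genes of any type put 50 members at another gene's end and gave a median distance of 27.1 kb to the nearest other gene. Without chromosome 4, chosen after seeing the data, 17 members lay at another gene's end and the median distance was 160 kb. An overlap of at least 100 bp left 3 receptor promoter windows. Density outside receptor territory stayed 1.58 to 2.59 times that inside it over the settings tried. None of these settings matched distance to other genes. At the territory's own mix of distances the values were closer, 19.1 regions per Mb outside and 14.9 inside. Keeping genes with scaffold coordinates was also chosen after seeing the data.

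No paired analysis was possible because the list holds no value per library; for the same reason no library was left out in turn. Depth is unknown, so an absent region means that none was in the list and not that the DNA is closed. Gene models without upstream exons, and receptor copies too alike to be told apart by reads, limit what the shares cover.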

Other observations

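Receptor genes on the sex chromosomes were outside the description above. Of the 10 on X and 20 on Y in the gene table, the X genes had 1 region within 10 kb and the Y genes had 0.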
